A study of Arabidopsis thaliana with 47 samples.

Results

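The 10 loci described here were taken by locus code from a table of 36823 loci of Arabidopsis thaliana. They act in flavonol biosynthesis or regulate it, except that UGT84A2 is known for adding glucose to sinapate. They were selected on their role together with their counts in all 9 groups, with earlier results of these data known, so the comparisons below describe genes picked with these values in view, and the tests set each difference against the spread between libraries. They are the enzymes 4CL3 (AT1G65060), CHS (AT5G13930), CHI (AT3G55120), F3H (AT3G51240), F3'H (AT5G07990) and FLS1 (AT5G08640), the sugar transferases UGT78D2 (AT5G17050) and UGT84A2 (AT3G21560), and the transcription factors MYB12 (AT2G47460) and MYB111 (AT5G49330). RNA-seq was done on the dissected root meristematic zone, the stretch of the root tip where cells divide, in 6-day-old seedlings treated for 24 h. All 3 genotypes carry the plt2 mutation: plt2 itself, plt2/gPLT2-GFP (here gPLT2), which adds a genomic PLT2 transgene fused to GFP, and plt2/gPLT2C212S-GFP (here gPLT2C212S), which adds that transgene with the C212S substitution, cysteine to serine in the usual notation. Each was given mock, 0.3 nM RGF1 or 5 nM RGF1, with n = 5 libraries per group and n = 6 in both transgenic lines at 5 nM, 47 in all, each from 50 root sections. PLT2 (PLETHORA 2) is a transcription factor that maintains the root meristem, and RGF1 is a secreted peptide hormone of the root tip. The number of independent insertions behind each transgenic line is not in the labels, so the transgene and other differences between lines cannot be told apart. Nor do the labels say whether libraries of a group came from separate cultures, so p-values measure only the spread between these libraries.

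Flavonols are plant phenolics built from the amino acid phenylalanine. 4CL activates coumarate with coenzyme A, CHS (chalcone synthase) joins it to malonyl units, CHI (chalcone isomerase) closes the ring, F3H and F3'H add hydroxyl groups, and FLS (flavonol synthase) makes the flavonol. Sugar transferases then attach glucose, and in roots flavonols are known to slow auxin transport and to scavenge reactive oxygen. MYB12 and MYB111 are related activators of these genes, and MYB12 is the one known to act mainly in the root.

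The level of PLT2 separated plt2 from both transgenic lines, as labelled, while counts per gene cannot show the substitution that separates these lines from each other. PLT2 stood at 7.3 ± 3.0 CPM (counts scaled to library size, SD, n = 5) in plt2 under mock, at 43.1 ± 3.7 in gPLT2 and at 70.3 ± 11.1 in gPLT2C212S, so transcript from the locus remained in the mutant. Libraries held 7740000 to 10330000 counts, rounded to 4 digits, of which mitochondrial loci took 46.3% to 72.4%, and 2312000 to 4879000 counts fell outside both organelles. A floor of 3 counts corresponds to 0.626 to 1.25 CPM, which covers counting error only. Meristem markers summed to between 300.5 and 523 CPM over all 47 libraries, although WOX5, the marker of the quiescent centre, had at most 9 counts in a library. Whether a lower level means fewer expressing cells or less RNA per cell cannot be told apart in such bulk samples.

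Windows upstream of some of these genes are shown because many of the genes moved together. That of CHI, which moved apart from the rest with RGF1, is set beside them. Each runs over the 300 bases before the annotated start of the gene in the RefSeq TAIR10.1 genome, and all 10 loci were found there. The capitals mark a G-box (CACGTG, the site of bZIP and bHLH factors) or an AC element (ACCTACC, a site of MYB factors), searched on both strands. CHS (chr5:4488176-4488475, plus strand), F3H (chr3:19024892-19025191, plus strand) and MYB12 (chr2:19476026-19476325, plus strand) each hold 1 G-box.
CHS: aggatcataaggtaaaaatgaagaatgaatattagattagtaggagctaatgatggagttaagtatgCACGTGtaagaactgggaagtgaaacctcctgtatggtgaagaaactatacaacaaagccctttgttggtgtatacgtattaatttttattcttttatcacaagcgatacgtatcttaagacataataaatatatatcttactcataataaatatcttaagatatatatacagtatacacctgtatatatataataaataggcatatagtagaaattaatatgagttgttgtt
F3H: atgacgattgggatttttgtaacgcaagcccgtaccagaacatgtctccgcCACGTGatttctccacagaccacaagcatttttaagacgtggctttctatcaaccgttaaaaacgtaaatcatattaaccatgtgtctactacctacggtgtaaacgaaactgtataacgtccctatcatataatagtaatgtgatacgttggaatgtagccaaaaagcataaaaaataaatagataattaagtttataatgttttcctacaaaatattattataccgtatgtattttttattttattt
MYB12: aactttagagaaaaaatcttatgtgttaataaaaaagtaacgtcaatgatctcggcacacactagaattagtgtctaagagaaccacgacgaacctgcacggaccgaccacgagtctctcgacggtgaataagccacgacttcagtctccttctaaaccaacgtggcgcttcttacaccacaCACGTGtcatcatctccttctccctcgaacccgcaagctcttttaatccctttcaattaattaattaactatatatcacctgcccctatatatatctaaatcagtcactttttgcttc
The window of 4CL3 (chr1:24171636-24171935, minus strand) holds 2 copies of ACCTACC, and that of CHI (chr3:20431598-20431897, minus strand) holds none of the motifs searched. The windows of F3'H, FLS1, MYB111, UGT78D2 and UGT84A2, not shown, hold none of them either. F3'H, FLS1 and UGT84A2 were lower with the rest in both transgenic lines, so the absence is not particular to CHI.
4CL3: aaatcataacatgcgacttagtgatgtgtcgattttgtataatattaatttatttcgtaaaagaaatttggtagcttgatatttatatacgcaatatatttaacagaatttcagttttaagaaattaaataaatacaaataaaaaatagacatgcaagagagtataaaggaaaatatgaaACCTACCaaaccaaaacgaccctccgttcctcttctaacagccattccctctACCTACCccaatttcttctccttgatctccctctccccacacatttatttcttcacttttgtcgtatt
CHI: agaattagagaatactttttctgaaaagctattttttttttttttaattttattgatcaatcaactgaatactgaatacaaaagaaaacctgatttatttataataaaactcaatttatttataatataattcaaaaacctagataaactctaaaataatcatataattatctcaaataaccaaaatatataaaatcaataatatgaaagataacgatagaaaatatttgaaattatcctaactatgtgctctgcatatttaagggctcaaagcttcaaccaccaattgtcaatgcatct
The G-boxes lie 233 to 228, 249 to 244 and 118 to 113 bases before the starts of CHS, F3H and MYB12, and the AC elements of 4CL3 lie 120 to 114 and 68 to 62 bases before its start. Of the 10 windows, 3 hold CACGTG against 7.09% of 27443 windows of the same length genome-wide, and 1 holds ACCTACC against 1.33%. The AC elements ACCAACC and ACCTAAC occur in 0 of the 10 windows and in 3.18% and 2.93% of all. These matches describe the letters of these windows and show no binding. The window of F3H overlaps the antisense locus AT3G51238, which also covers 1588 bases of the gene. That locus had 0 to 5 counts per library.

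In the plt2 mutant under mock treatment, where the pathway stood highest for most members, CHS, F3H and FLS1 were the most abundant. On the authors' deposited FPKM, which is scaled by gene length and so allows genes to be compared, CHS stood at 222 ± 46.8 (SD, n = 5), F3H at 154 ± 61.8 and FLS1 at 81.5 ± 30.7. CHI followed at 18.5 ± 7.8, 4CL3 at 17.3 ± 10.01, F3'H at 16.0 ± 7.47, UGT78D2 at 14.8 ± 8.22 and UGT84A2 at 12.96 ± 8.1. The libraries of these last 5 genes overlapped one another in level, so their order among themselves is not settled. The regulator MYB12 stood at 9.69 ± 2.8 FPKM. MYB111 stood at 0.238 ± 0.169 FPKM, with 0 to 4 counts in every library of the series, and was never abundant enough to be tested.

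**Figure D1:**
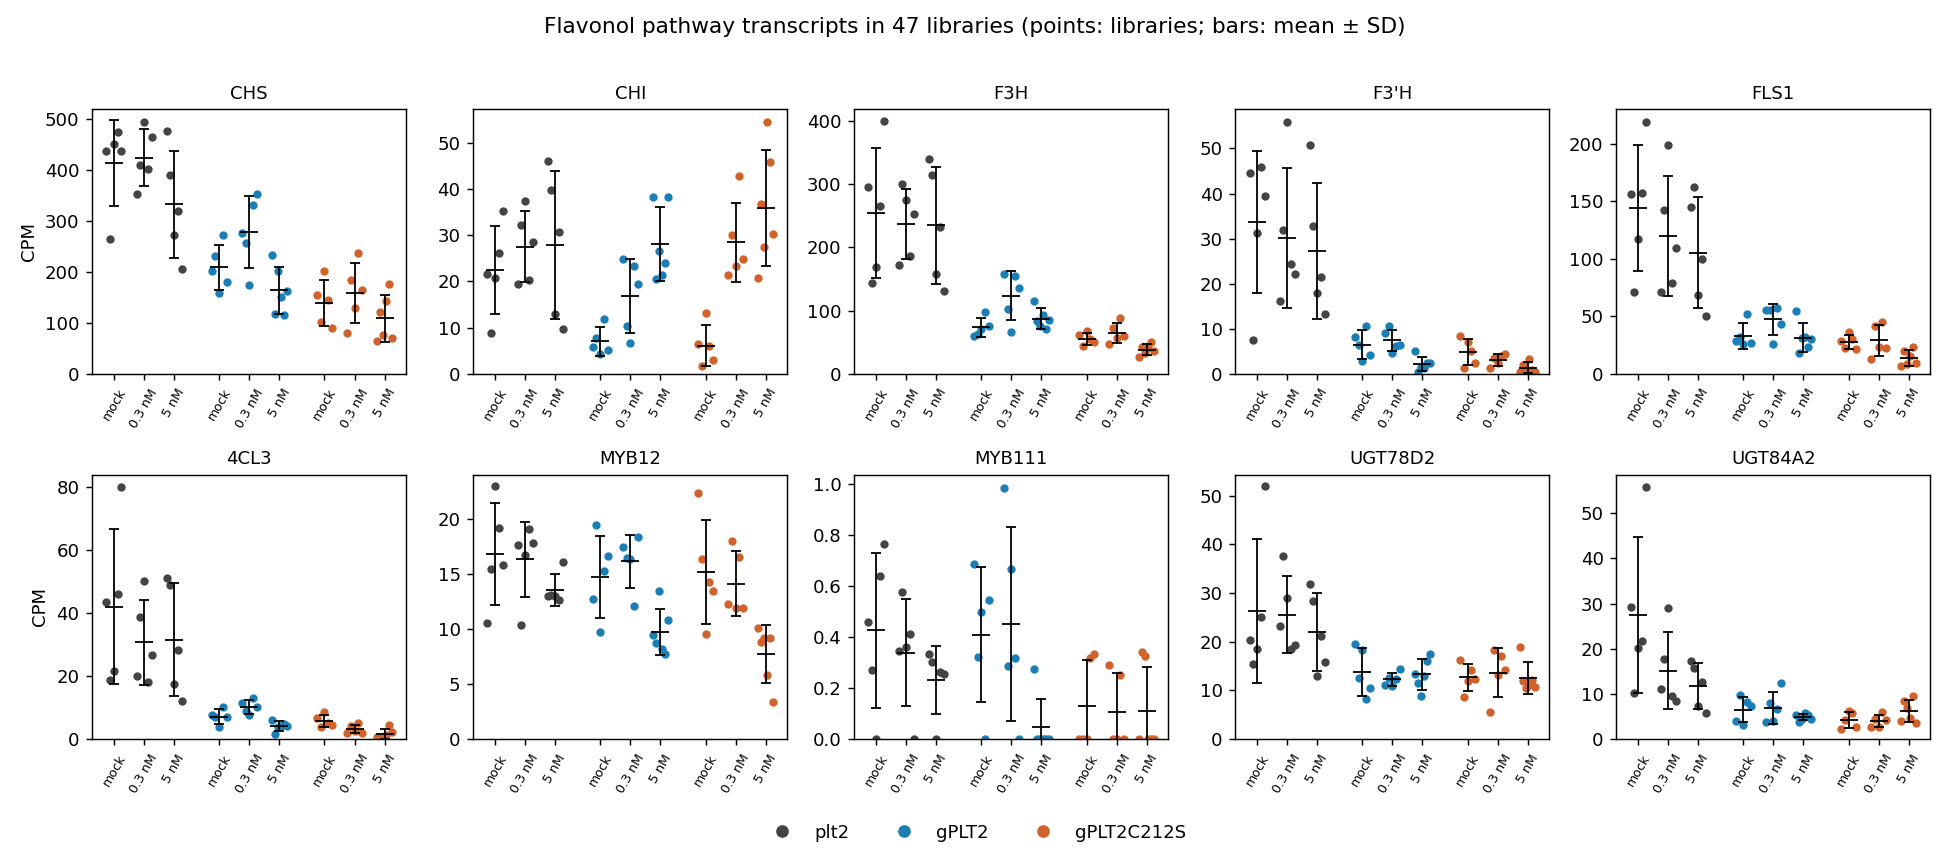
CPM of each of the 10 genes (vertical axes, each with its own scale from 0) in the 9 groups, with 1 point per library and bars for mean ± SD, n = 5 or 6. The enzymes sit lower in both transgenic lines than in plt2, while CHI rises again with RGF1 in those lines and MYB12 falls at 5 nM.

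Under mock treatment, 7 of the 9 members tested were lower in gPLT2 than in plt2 and 8 of 9 were lower in gPLT2C212S, and 0 were higher in either. The genes that fell were 4CL3, CHS, CHI, F3H, F3'H, FLS1 and UGT84A2 in both lines, joined by UGT78D2 in gPLT2C212S, while MYB12 passed the test in neither. Calls were made with edgeR's quasi-likelihood F test at a Benjamini-Hochberg adjusted p under 0.05 over all genes tested. Of all genes tested, 1.08% were called lower in gPLT2 and 11.8% in gPLT2C212S. Both lines were compared with the same 5 plt2 libraries, and since the genes were chosen with these data in view, the counts are not independent evidence of a direction. At an unadjusted p under 0.05, 8 members were lower and 0 higher in each line, and DESeq2 called 7 and 8 lower and 0 higher.

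CHS, the entry enzyme, stood at 437, 264, 450.1, 474 and 438 CPM in the 5 plt2 mock libraries, at 201, 230.4, 159, 272.5 and 181 in gPLT2 and at 154.5, 102, 203, 145 and 90.5 in gPLT2C212S. Only the lowest plt2 library reached into the range of gPLT2, and none reached that of gPLT2C212S. The log2 fold change against plt2 was -0.97 for gPLT2 (SE 0.17, adjusted p = 0.0056, edgeR) and -1.60 for gPLT2C212S (SE 0.20, adjusted p = 4.1e-05). F3H, which hydroxylates naringenin, stood at 295, 143, 169.5, 266 and 399.9 CPM in plt2, at 59.97, 62.4, 70.8, 98.4 and 75.8 in gPLT2 and at 61.5, 43.3, 67.7, 55.4 and 50.3 in gPLT2C212S. Neither transgenic line overlapped plt2. The log2 fold changes of F3H were -1.78 (SE 0.23, adjusted p = 0.00036) and -2.22 (SE 0.23, adjusted p = 6.3e-06).

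FLS1, which makes the flavonol itself, stood at 157, 71.3, 117.5, 157 and 219.5 CPM in plt2, at 28.1, 31.7, 25.6, 52.3 and 26.6 in gPLT2 and at 28.4, 22.6, 36.7, 30.4 and 21.5 in gPLT2C212S, again with no overlap between plt2 and either line. Its group means in the lines were 22.7% and 19.3% of the plt2 mean. 4CL3, the coumarate ligase linked to flavonoids, stood at 43.6, 18.9, 21.7, 46.2 and 80.0 CPM in plt2 against 3.72 to 10.29 in gPLT2 and 3.99 to 8.70 in gPLT2C212S, and these ranges did not overlap. Its log2 fold changes were -2.58 (SE 0.36, adjusted p = 0.00075) and -2.87 (SE 0.36, adjusted p = 3.9e-05). F3'H, which turns kaempferol precursors into quercetin precursors, ranged from 7.57 to 45.9 CPM in plt2, from 2.73 to 10.7 in gPLT2 and from 1.33 to 8.27 in gPLT2C212S. Its ranges overlapped through plt2 replicate 2, the library with 7.57 CPM, and its log2 fold changes were -2.44 (SE 0.40, adjusted p = 0.0039) and -2.82 (SE 0.43, adjusted p = 0.00024).

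CHI fell to 31.0% and 26.9% of its plt2 mean, with log2 fold changes of -1.72 (SE 0.32, adjusted p = 0.0096) and -1.88 (SE 0.40, adjusted p = 0.0030). The latter was no longer called once the mitochondrial share entered as a covariate (-1.505, adjusted p = 0.0504). The sugar transferases differed from each other. UGT84A2, known to add glucose to sinapate, stood at 29.1, 10.27, 20.2, 21.7 and 55.8 CPM in plt2 against 3.23 to 9.69 in gPLT2 and 2.16 to 6.25 in gPLT2C212S, with no overlap. Its log2 fold changes were -2.08 (SE 0.39, adjusted p = 0.0087) and -2.69 (SE 0.40, adjusted p = 0.00016). UGT78D2, which adds glucose to flavonols, showed log2 fold changes of -0.90 (SE 0.31, adjusted p = 0.13) and -1.08 (SE 0.29, adjusted p = 0.014), and the latter call was lost with the mitochondrial share as a covariate (-0.93, adjusted p = 0.15). How reads shared with related transferases were counted is not given in the sources used here, so values of both are uncertain to that extent.

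The regulator MYB12 stood at 10.5, 15.4, 23.0, 19.1 and 15.8 CPM in plt2, at 12.7, 19.4, 9.68, 15.2 and 16.6 in gPLT2 and at 22.3, 16.3, 9.52, 14.2 and 13.4 in gPLT2C212S. All 3 ranges overlapped widely. Its log2 fold changes were -0.17 in both lines (SE 0.23, adjusted p = 0.75, and SE 0.24, adjusted p = 0.66). A difference of this gene smaller than the spread between libraries was not detectable here.

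**Figure D2:**
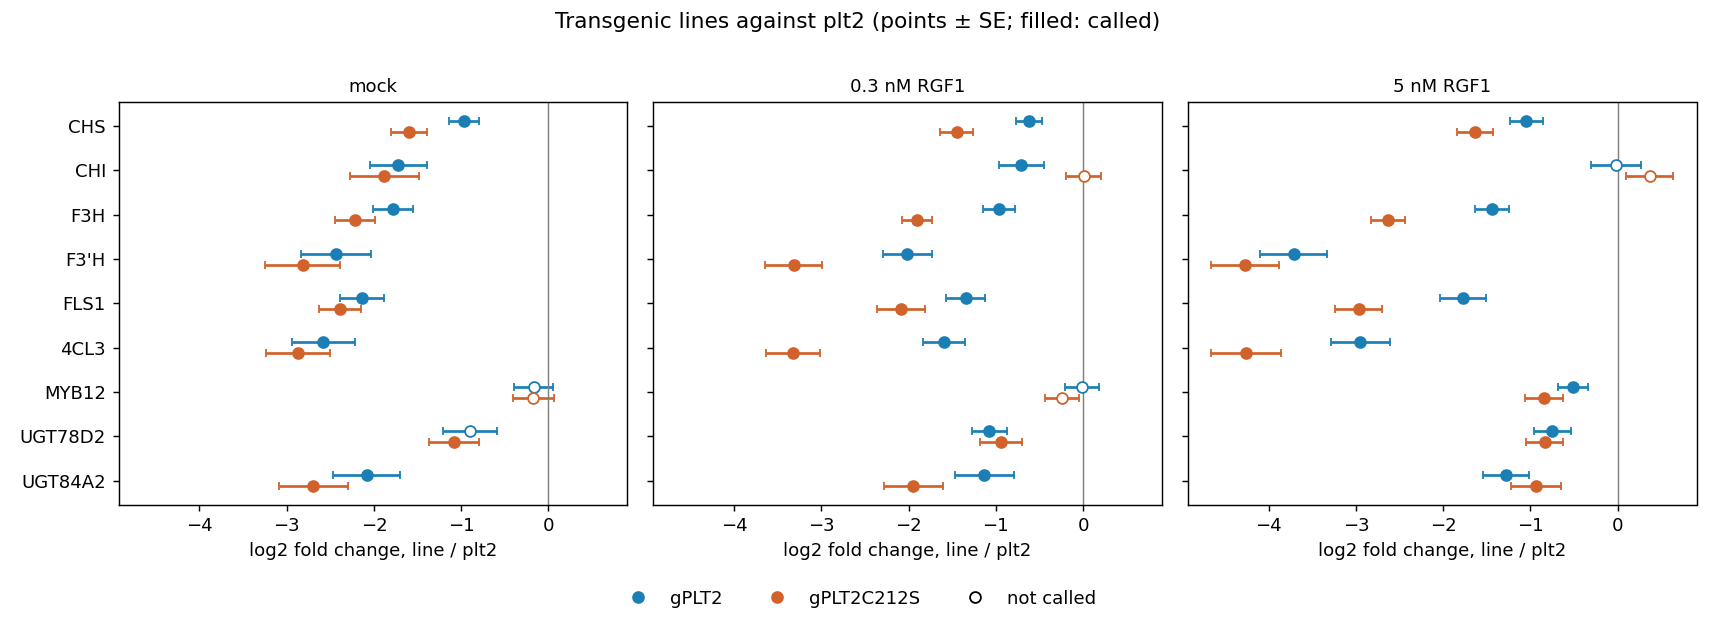
Log2 fold change of each transgenic line against plt2 (horizontal axis, points ± SE) for the 9 genes tested under mock, 0.3 nM and 5 nM RGF1, with filled points for called genes. Most points lie left of 0 in all 3 panels, and MYB12 is filled in the 5 nM panel. CHI nears 0 as the dose rises in gPLT2, while in gPLT2C212S it lies at 0 at 0.3 nM and right of 0, not filled, at 5 nM.

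Under 0.3 nM RGF1, 8 of 9 members were lower in gPLT2 than in plt2 and 7 of 9 in gPLT2C212S, where 17% and 24.2% of all genes tested were called lower. Under 5 nM, 8 of 9 were lower in each line, against 20.7% and 23.2% of all genes. No member was called higher in these 4 comparisons by edgeR, at an unadjusted p under 0.05 or by DESeq2. Relative to plt2 under mock, the lowest levels among the 9 members tested were those of F3'H and 4CL3 in gPLT2C212S at 5 nM. F3'H had a lowest value of 0.303, a median of 0.908 and a highest of 3.37 CPM there, with 4 of 6 libraries at 3 counts or fewer, and its mean was 3.93% of that in plt2 under mock. 4CL3 ranged from 0.655 to 4.59 CPM, with 3 of 6 libraries at 3 counts or fewer, at 3.99% of plt2 under mock. Against plt2 at the same dose the log2 fold changes were -4.27 (SE 0.39, adjusted p = 8.8e-10) for F3'H and -4.26 (SE 0.40, adjusted p = 1.6e-09) for 4CL3, and neither overlapped plt2. Both passed the count filter in that fit only through plt2, their higher group, which favours a lower call. The size of a fold against a group at the floor also depends on the prior count. As raw counts at 5 nM, F3'H had 1 to 11 in gPLT2C212S and 51 to 153 in plt2, and 4CL3 had 2 to 11 and 47 to 161.

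CHI stood outside this pattern, as did MYB12 at 0.3 nM. It showed a log2 fold change of 0.01 (SE 0.20, adjusted p = 0.97) in gPLT2C212S against plt2 at 0.3 nM, and at 5 nM of -0.01 for gPLT2 (SE 0.29, adjusted p = 0.98) and 0.37 for gPLT2C212S (SE 0.27, adjusted p = 0.28). In gPLT2 at 0.3 nM it was called lower (-0.71, SE 0.26, adjusted p = 0.038). That call was lost with DESeq2 (adjusted p = 0.068) and when plt2 replicate 2, 3 or 5 or gPLT2 replicate 2 or 3 was left out (adjusted p from 0.067 to 0.10). CHS in gPLT2 at 0.3 nM (-0.62, SE 0.15, adjusted p = 0.0024) was not called with total-count scaling (-0.44, adjusted p = 0.062). UGT84A2 there (-1.13, SE 0.34, adjusted p = 0.013) was not called without plt2 replicate 3 (-0.76, adjusted p = 0.068).

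MYB12 was called lower than in plt2 at 5 nM, with log2 fold changes of -0.51 (SE 0.17, adjusted p = 0.024) for gPLT2 and -0.84 (SE 0.22, adjusted p = 0.0027) for gPLT2C212S. The plt2 libraries lay between 12.6 and 16.1 CPM, those of gPLT2 between 7.76 and 13.4 and those of gPLT2C212S between 3.34 and 10.1, the last without overlap. The call in gPLT2 was lost without plt2 replicate 5 or gPLT2 replicate 2, 4 or 5 (adjusted p from 0.053 to 0.080), with no filter on low counts (adjusted p = 0.059) and with total-count scaling (adjusted p = 0.13). The response of MYB12 to 5 nM was not called different from that of plt2 in either line (log2 differences of -0.32, adjusted p = 0.52, and -0.65, adjusted p = 0.21).

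Within plt2, UGT84A2 was the one member called with RGF1. At 0.3 nM, 0 of 9 members were called by edgeR or DESeq2, 1 was lower at an unadjusted p under 0.05, and 0.0504% of all genes were called. At 5 nM, 1 of 9 was lower, where 9.44% of all genes were called and 6.62% were called lower. That gene was UGT84A2, which fell by 1.22 on the log2 scale (SE 0.37, adjusted p = 0.043), with 17.3, 15.8, 7.36, 12.6 and 5.87 CPM at 5 nM and overlap with mock. It was not called when any of mock replicates 1, 4 and 5 or 5 nM replicates 2 to 5 was left out (log2 fold changes from -1.35 to -0.81, adjusted p from 0.056 to 0.12). It was also lost with the mitochondrial share as a covariate (-1.04, adjusted p = 0.090), which had a median of 54.4% in plt2 mock and 61.1% in plt2 at 5 nM. From 0.3 to 5 nM 0 of 9 members were called in plt2 by either tool, 1 was lower at an unadjusted p under 0.05, and 18.9% of all genes were called.

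**Figure D3:**
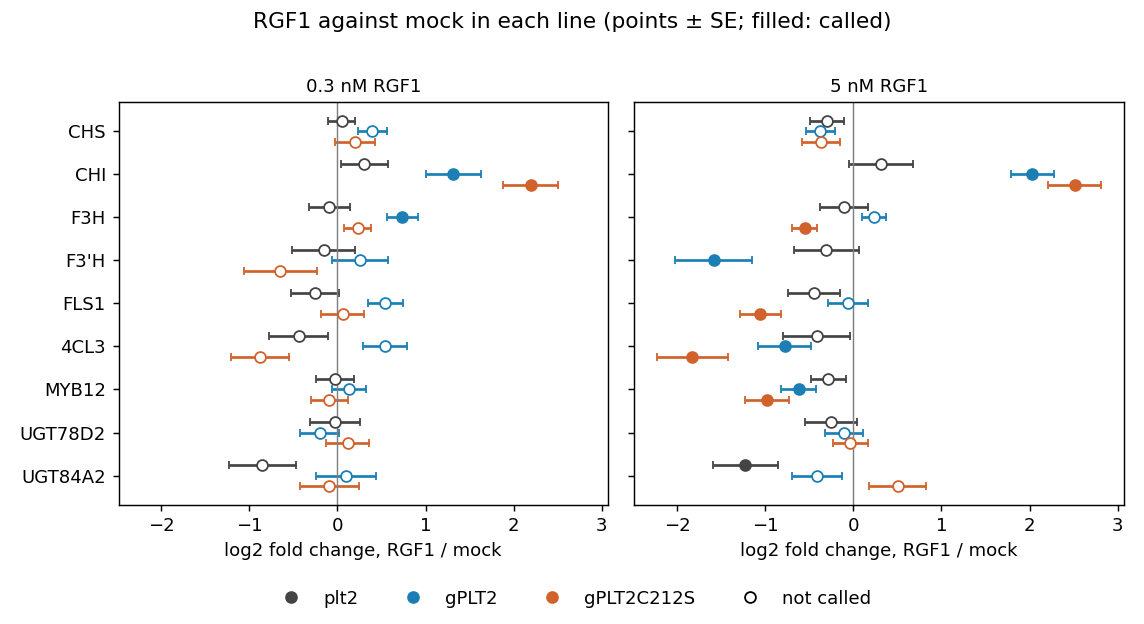
Log2 fold change of RGF1 against mock within each line (horizontal axis, points ± SE) for the 9 genes tested, at 0.3 and 5 nM, with filled points for called genes. CHI lies right of 0 and filled in both transgenic lines, while at 5 nM the filled points of 4CL3 and MYB12 lie left of 0 in both.

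Within gPLT2, 0.3 nM RGF1 raised CHI and F3H, 2 of 9 members, where 15.2% of all genes were called and 6.14% were called higher. At 5 nM 1 member was higher and 3 were lower, where 47.5% of all genes were called, a share close to that of the members. CHI rose there, while F3'H fell by 1.58 (SE 0.43, adjusted p = 0.0051), 4CL3 by 0.78 (SE 0.30, adjusted p = 0.039) and MYB12 by 0.62 (SE 0.20, adjusted p = 0.014) on the log2 scale. The 4CL3 call was lost when any of mock replicates 1, 2, 4 and 5 or 5 nM replicates 2, 3 and 4 was left out (adjusted p from 0.051 to 0.11), and MYB12 without mock replicate 2 (-0.50, adjusted p = 0.060). With total-count scaling neither was called (adjusted p = 0.11 and 0.10). Both doses were set against the same mock libraries.

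F3H in gPLT2 had a dose course with its highest mean at 0.3 nM. It stood at 158, 103, 65.9, 155 and 135 CPM at 0.3 nM, and at a lowest of 70.0, a median of 84.9 and a highest of 116 at 5 nM. The 0.3 nM libraries spread across the range of the other doses. Its log2 fold change was 0.74 (SE 0.18, adjusted p = 0.0062) from mock to 0.3 nM and -0.49 (SE 0.17, adjusted p = 0.042) from 0.3 to 5 nM. The latter call was lost in 6 of the fits that left out 1 library, without 0.3 nM replicates 1, 4 or 5 or 5 nM replicates 2, 3 or 5 (adjusted p from 0.067 to 0.13), and with DESeq2 (adjusted p = 0.0504). Between those doses 1 member rose and 5 fell in gPLT2, where 23.2% of all genes were called. CHS fell by 0.76 (SE 0.18, adjusted p = 0.0039), F3'H by 1.81 (SE 0.38, adjusted p = 0.0018), 4CL3 by 1.304 (SE 0.26, adjusted p = 0.0011) and MYB12 by 0.73 (SE 0.18, adjusted p = 0.0052), and 4CL3 showed no overlap.

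Within gPLT2C212S, CHI was the one member called at 0.3 nM, where 22.9% of all genes were called. At 5 nM CHI rose again and 4 of 8 members fell, where 40.2% of all genes were called. F3H fell by 0.55 (SE 0.14, adjusted p = 0.0032), FLS1 by 1.05 (SE 0.23, adjusted p = 0.00076), 4CL3 by 1.83 (SE 0.40, adjusted p = 0.00076) and MYB12 by 0.98 (SE 0.25, adjusted p = 0.0026) on the log2 scale. FLS1 at 5 nM had a lowest value of 6.47, a median of 12.2 and a highest of 23.4 CPM. MYB12 had a lowest of 3.34, a median of 9.01 and a highest of 10.1 CPM, which overlapped mock through mock replicate 3 at 9.52 CPM. F3'H was too low to pass the count filter in the fit of these 2 groups. 4CL3 passed it only through its mock libraries, which favours a fall. In a fit of all groups together the F3H call was lost (-0.56, adjusted p = 0.056). From 0.3 to 5 nM 3 of 8 members fell and 0 rose by either tool or at an unadjusted p under 0.05, where 10.1% of all genes were called and 6.42% were called lower. These were F3H by 0.75 (SE 0.15, adjusted p = 0.0022), FLS1 by 1.08 (SE 0.28, adjusted p = 0.015) and MYB12 by 0.86 (SE 0.23, adjusted p = 0.017). Without 0.3 nM replicate 4, FLS1 (-0.85, adjusted p = 0.073) and MYB12 (-0.79, adjusted p = 0.057) were not called, and DESeq2 did not call FLS1 (adjusted p = 0.088).

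CHI, the ring-closing isomerase, rose with RGF1 in both transgenic lines. In gPLT2 it stood at 5.83, 7.75, 4.22, 11.9 and 5.16 CPM under mock, at 24.8, 10.35, 6.66, 23.2 and 19.4 at 0.3 nM, and at a lowest of 20.6, a median of 25.3 and a highest of 38.2 at 5 nM. Every 5 nM library lay above every mock library, while 0.3 nM overlapped mock. In gPLT2C212S it stood at 6.47, 1.66, 13.05, 6.02 and 3.02 CPM under mock, at 21.3, 30.1, 23.4, 42.7 and 24.8 at 0.3 nM, and at a lowest of 20.6, a median of 33.6 and a highest of 54.6 at 5 nM. Neither dose overlapped mock in that line. In plt2 it stood at 21.5, 8.92, 20.8, 26.1 and 35.1 CPM under mock, at 19.4, 32.2, 37.4, 20.3 and 28.4 at 0.3 nM and at 46.1, 39.8, 12.96, 30.7 and 9.70 at 5 nM, and these ranges overlapped throughout.

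The log2 fold change of CHI from mock was 0.30 (SE 0.27, adjusted p = 0.84) at 0.3 nM and 0.31 (SE 0.37, adjusted p = 0.64) at 5 nM in plt2. It was 1.32 (SE 0.31, adjusted p = 0.0053) and 2.03 (SE 0.24, adjusted p = 1.3e-06) in gPLT2, and 2.19 (SE 0.31, adjusted p = 2.4e-05) and 2.51 (SE 0.30, adjusted p = 3.3e-07) in gPLT2C212S. From 0.3 to 5 nM it rose in gPLT2 by 0.72 (SE 0.25, adjusted p = 0.039), a call lost without 0.3 nM replicates 2, 3 or 5 or 5 nM replicates 1, 3 or 6 (adjusted p from 0.051 to 0.11). In gPLT2C212S the step was 0.36 (SE 0.20, adjusted p = 0.27).

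The responses themselves were compared between lines by interaction terms. At 5 nM the response of CHI exceeded that of plt2 in gPLT2, by 1.74 on the log2 scale (SE 0.50, adjusted p = 0.026). It did so in gPLT2C212S by 2.25 (SE 0.55, adjusted p = 0.0056), where 9.76% and 12.4% of all genes were called. At 0.3 nM the excess was 1.88 for gPLT2C212S (SE 0.46, adjusted p = 0.0092), where 11% of all genes were called. It was 1.03 for gPLT2 (SE 0.46, adjusted p = 0.18), where 5.99% were called. In that last test 0 members were called by edgeR or DESeq2, and 4 at an unadjusted p under 0.05. The call at 0.3 nM was lost with the mitochondrial share as a covariate (1.69, adjusted p = 0.077). Between the transgenic lines the responses of CHI differed by 0.87 (SE 0.51, adjusted p = 0.42) at 0.3 nM, where 1.99% of all genes were called and 0 members by either tool, with 1 at an unadjusted p under 0.05. At 5 nM they differed by 0.49 (SE 0.46, adjusted p = 0.59; 4.82% called).

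In the remaining interactions, UGT84A2 and F3H were called once each. The response of UGT84A2 to 5 nM was higher in gPLT2C212S than in plt2 by 1.77 (SE 0.54, adjusted p = 0.029), with means of 4.22 CPM under mock and 6.21 CPM at 5 nM in that line against 27.4 and 11.8 in plt2. That call was lost without plt2 mock replicate 5, plt2 5 nM replicates 3 or 5, gPLT2C212S mock replicates 1 or 5, or gPLT2C212S 5 nM replicates 2 or 5 (log2 difference from 1.33 to 1.65, adjusted p from 0.052 to 0.065). The response of F3H to 5 nM was lower in gPLT2C212S than in gPLT2 by a log2 difference of -0.79 (SE 0.21, adjusted p = 0.026). It was lost without gPLT2 mock replicates 1 or 2, gPLT2C212S mock replicate 3 or gPLT2C212S 5 nM replicate 1 (adjusted p from 0.055 to 0.067) and in a fit of all groups together (adjusted p = 0.17).

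The ratio of these consecutive enzymes rose from mock to 5 nM in both transgenic lines, where CHI was called higher than mock and CHS was not called against mock. From 0.3 to 5 nM both genes were called in gPLT2, CHI higher (0.72, adjusted p = 0.039, edgeR) and CHS lower (-0.76, adjusted p = 0.0039). In gPLT2C212S neither was called over that step (CHI 0.36, adjusted p = 0.27, and CHS -0.54, adjusted p = 0.14). CHI FPKM was 8.10% ± 2.63 (SD, n = 5) of CHS FPKM in plt2 under mock, 4.95% ± 1.07 in gPLT2 and 6.05% ± 2.66 in gPLT2C212S. At 5 nM it was 11.9% ± 4.28 in plt2, 27.0% ± 6.05 (n = 6) in gPLT2 and 52.5% ± 9.43 (n = 6) in gPLT2C212S. The 5 nM libraries of both transgenic lines lay above all of their mock libraries, at 20.2% to 36.1% in gPLT2 and 40.0% to 66.3% in gPLT2C212S. At 0.3 nM the share was 9.84% ± 1.92 in plt2, 9.01% ± 3.32 in gPLT2 and 28.9% ± 7.10 in gPLT2C212S.

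**Figure D4:**
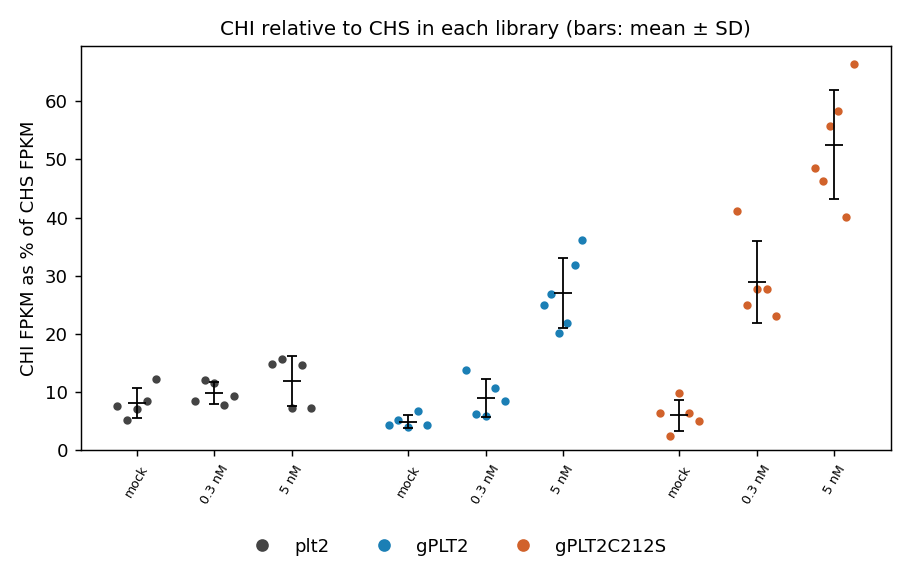
CHI FPKM as a percent of CHS FPKM in each library (vertical axis, from 0), by line and RGF1 dose, with bars for mean ± SD (n = 5 or 6). The 6 gPLT2C212S libraries at 5 nM sit between 40.0% and 66.3%, above all other groups except 1 library of that line at 0.3 nM.

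The transgenic lines were also set against each other. Under mock 1 of 9 members, CHS, was lower in gPLT2C212S than in gPLT2 (-0.61, SE 0.18, adjusted p = 0.041), where 6.55% of all genes were called lower. That call was lost without gPLT2 replicates 1, 2 or 4 or gPLT2C212S replicates 2, 4 or 5 (adjusted p from 0.077 to 0.12) and with total-count scaling (adjusted p = 0.079). At 0.3 nM 4 of 9 were lower, where 3.99% were called lower: CHS (-0.81, SE 0.21, adjusted p = 0.018), F3H (-0.93, SE 0.19, adjusted p = 0.0030), F3'H (-1.28, SE 0.33, adjusted p = 0.017) and 4CL3 (-1.71, SE 0.28, adjusted p = 0.00046). Values of 4CL3 and F3'H did not overlap between the lines at that dose, at 7.66 to 13.05 against 1.91 to 5.00 CPM for 4CL3. The CHS call was lost without gPLT2 replicate 5 (-0.71, adjusted p = 0.060) and with DESeq2 (adjusted p = 0.083), and that of F3'H without gPLT2 replicate 2 or gPLT2C212S replicate 3 (adjusted p from 0.052 to 0.066). At 5 nM 2 of 8 were lower, where 2.06% were called lower. These were F3H (-1.19, SE 0.14, adjusted p = 9.8e-06), with 70.0 to 116 against 26.7 to 50.5 CPM and no overlap, and FLS1 (-1.20, SE 0.26, adjusted p = 0.0088). No member was called higher in these 3 comparisons by edgeR or DESeq2, and 1 was at an unadjusted p under 0.05, at 0.3 nM.

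Genes that feed the pathway also stood lower in the transgenic lines. Of 10 upstream phenylpropanoid genes, 7 were tested under mock, and 4 were lower in gPLT2 and 5 in gPLT2C212S, against 1.08% and 11.8% of all genes. The median log2 fold changes of the 7 were -0.63 and -1.02 against -0.01 and 0.00 over all genes tested. PAL1, which takes the amino group off phenylalanine, stood at 89.6 CPM in plt2, 13.3 in gPLT2 and 12.5 in gPLT2C212S (log2 -2.75, SE 0.29, adjusted p = 8.2e-05, and -2.84, SE 0.38, adjusted p = 6.2e-05). C4H, which hydroxylates cinnamate, showed -1.06 (SE 0.13, adjusted p = 0.00021) and -1.48 (SE 0.14, adjusted p = 3.4e-06). ATR2, a reductase that serves such hydroxylases, was called at -0.50 (adjusted p = 0.020) and -1.02 (adjusted p = 1.2e-05), and 4CL1, a further coumarate ligase, at 2.79 CPM (adjusted p = 0.036) and 1.43 CPM (adjusted p = 0.00075) against 9.55 in plt2. In gPLT2 the ATR2 call was lost without plt2 replicates 1 or 4 or gPLT2 replicates 4 or 5 (adjusted p from 0.051 to 0.062), and the 4CL1 call without plt2 replicates 1, 4 or 5 or gPLT2 replicates 1, 2, 4 or 5 (adjusted p from 0.055 to 0.10). PAL2 was called in gPLT2C212S (-0.74, adjusted p = 0.026), a call lost without plt2 replicate 4 or gPLT2C212S replicate 4 (adjusted p from 0.059 to 0.065) and with the mitochondrial share as a covariate (adjusted p = 0.23). In gPLT2C212S at 5 nM against mock 3 of 7 upstream genes rose, where 18.7% of all genes were called higher, namely 4CL1 (1.88, adjusted p = 0.00012), C4H (0.57, adjusted p = 0.0011) and PAL1 (0.84, adjusted p = 0.020), while 4CL3 fell. 4CL1 passed the count filter in that fit only through its 5 nM libraries, and in both mock comparisons only through plt2. Passing only through the higher group favours that direction, so the 4CL1 calls in these fits do not speak for the list. The PAL1 call was lost without mock replicates 2 or 5 (adjusted p from 0.053 to 0.065) and with DESeq2 (adjusted p = 0.092). In gPLT2 at 5 nM 0 of 7 were called by edgeR or DESeq2 and 1 was lower at an unadjusted p under 0.05, where 47.5% of all genes were called. In plt2 1 of 7 rose, where 2.82% were called higher, and this was 4CL1, with 9.55 CPM under mock and 21.7 CPM at 5 nM (adjusted p = 0.040), groups that overlapped. DESeq2 also called 1 of 7 higher there, and the other alternatives are not given for this call.

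Of 12 other flavonol and early flavonoid genes 6 were tested under mock, and 3 were lower in gPLT2 and 5 in gPLT2C212S, against 1.08% and 11.8% of all genes. CHIL, a non-catalytic relative of CHI that aids chalcone synthesis, stood at 199 CPM in plt2, 81.9 in gPLT2 and 78.5 in gPLT2C212S (log2 -1.27, adjusted p = 0.0083, and -1.36, adjusted p = 0.00086). Unlike CHI it fell further at 5 nM RGF1, to 37.3 CPM in gPLT2 (log2 -1.155, adjusted p = 0.00050) and to 26.3 CPM in gPLT2C212S (log2 -1.60, adjusted p = 3.2e-06). RHM1, which makes UDP-rhamnose, and UGT89C1, which adds rhamnose to flavonols, were also lower under mock, RHM1 by 0.81 (adjusted p = 0.018) and 1.36 (adjusted p = 4.4e-05) and UGT89C1 by 1.22 (adjusted p = 0.034) and 1.37 (adjusted p = 0.0033). In gPLT2 those calls were lost without gPLT2 replicates 2, 4 or 5 for RHM1 (adjusted p from 0.053 to 0.058), and without plt2 replicates 1 or 4 or gPLT2 replicates 1, 2, 3 or 5 for UGT89C1 (adjusted p from 0.066 to 0.091). The UGT89C1 call in gPLT2C212S was lost once the mitochondrial share entered as a covariate (-0.84, adjusted p = 0.14). OMT1, a methyltransferase that acts on flavonols, and BGLU15, a glucosidase of flavonol bisglycosides, were the other genes called lower in gPLT2C212S under mock (-0.99, adjusted p = 8.5e-05, and -0.58, adjusted p = 0.0096). BGLU15 rose at 5 nM from 21.7 to 45.4 CPM in gPLT2 (log2 1.03, adjusted p = 3.8e-05). In gPLT2C212S it rose from 19.3 to 56.5 CPM (log2 1.55, adjusted p = 1.3e-09). FLS5, a relative of FLS1, had at most 3 counts in any gPLT2C212S mock library and 9 to 19 at 5 nM.

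The anthocyanin and proanthocyanidin branch, which leaves the pathway after F3H, was close to silent. Its 12 genes summed to between 2.101 and 14.1 CPM per library. DFR, its first enzyme, had at most 2 counts in any library, and LDOX at most 4. In the sinapate ester branch, which uses the same early steps, FAH1 (ferulate hydroxylase) had 0 to 3 counts in gPLT2 under mock and 19 to 37 at 5 nM, and 0 to 6 and 13 to 43 in gPLT2C212S. Of the 7 genes of that list 3 were tested at 5 nM against mock. In gPLT2 FAH1 was called higher and REF1 lower, where 23.2% and 24.3% of all genes were. In gPLT2C212S only FAH1 was called, higher, where 18.7% were. FAH1 passed the count filter there only through its 5 nM libraries, which favours a rise.

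Among 29 regulators of flavonoid genes 17 were tested in gPLT2 under mock, and 0 were called by edgeR or DESeq2, where edgeR called 2.54% of all genes. At an unadjusted p under 0.05 there were 2 higher and 3 lower. In gPLT2C212S 1 of 16 was higher and 4 were lower, where 6.83% of all genes were called higher and 11.8% lower. BBX22 was higher (0.82, adjusted p = 0.0055), and LBD37 (-0.71, adjusted p = 0.0010), RUP1 (-1.17, adjusted p = 0.0015), HYH (-1.30, adjusted p = 0.0071) and LBD39 (-0.57, adjusted p = 0.012) were lower. Once the mitochondrial share entered as a covariate, BBX22 (adjusted p = 0.067) and HYH (adjusted p = 0.12) were not called. LBD37 and LBD39 are known as repressors of anthocyanin genes, RUP1 damps the UV-B light response, and HYH is a light-response activator related to HY5. At 5 nM against mock 2 regulators rose and 7 fell of 19 in gPLT2, where 47.5% of all genes were called, and 3 rose and 5 fell of 17 in gPLT2C212S, where 40.2% were called. These shares are close to those over all genes. For LBD39 the mean went down to 34.5 CPM from 87.5 in gPLT2 (log2 -1.35, adjusted p = 9.0e-08), and gPLT2C212S had 33.1 CPM after 79.0 (log2 -1.26, adjusted p = 2.1e-08). RUP1 fell by 2.72 (SE 0.29, adjusted p = 3.2e-07) and 2.17 (SE 0.36, adjusted p = 3.4e-05). KFB50, known to mark phenylalanine ammonia-lyase for degradation, rose by 1.66 (SE 0.27, adjusted p = 4.7e-05) and 2.29 (SE 0.37, adjusted p = 2.4e-05). GL3, a bHLH partner of MYB factors, fell by 0.89 (adjusted p = 5.5e-05) and 0.79 (adjusted p = 0.00085). Its relative EGL3 fell by 0.75 in gPLT2 (adjusted p = 6.5e-05), and KFB1, a relative of KFB50, rose by 0.54 in gPLT2C212S (adjusted p = 0.0027), a call lost with total-count scaling (0.41, adjusted p = 0.077). These lists were drawn up with earlier results of these data known.

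Among all genes other than the 10 members, those whose levels followed the members most closely over the 47 libraries were KAT5 (AT5G48880, Pearson r = 0.920), SAHH2 (AT3G23810, r = 0.911), CHIL (AT5G05270, r = 0.902), ABCI20 (AT5G02270, r = 0.901) and UGT89C1 (AT1G06000, r = 0.900). CHIL and UGT89C1 also belong to the list of other flavonol genes above. The measure was the correlation with the mean standardised log2 CPM of the 9 tested members, over 13971 candidate genes, and the libraries share groups, so it is a description. KAT5, a thiolase, had a mean of 42.2 CPM in plt2 under mock, 10.7 in gPLT2 and 7.49 in gPLT2C212S. SAHH2, which recycles S-adenosylhomocysteine, had 376, 201 and 196 CPM, and ABCI20, an ABC protein, had 201, 87.7 and 71.2 CPM.

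Other differences between the same groups ran beside these. The 4 root cap markers summed to 512 to 928 CPM in plt2 under mock, 555 to 923 in gPLT2 and 663.5 to 709.5 in gPLT2C212S. Under mock 0 of 4 were called in gPLT2 by edgeR, by DESeq2 or at an unadjusted p under 0.05, where edgeR called 2.54% of all genes. In gPLT2C212S BRN1 was lower (-0.66, adjusted p = 0.047), where 11.8% of all genes were called lower. That call was lost without plt2 replicates 2, 3 or 4 or gPLT2C212S replicates 2, 3, 4 or 5 (adjusted p from 0.083 to 0.13). At 5 nM the root cap markers summed to 352.5 to 608 CPM in plt2, 127.5 to 261.5 in gPLT2 and 149 to 268 in gPLT2C212S. All 4 fell from mock in each transgenic line, where 24.3% and 21.5% of all genes were called lower. The 14 markers of differentiated root cells summed to 12.7 to 22.5 CPM in gPLT2C212S under mock and 42.2 to 78.0 at 5 nM, with 5 of 5 tested higher, where 18.7% of all genes were. In gPLT2 they summed to 17.4 to 30.05 and 17.6 to 50.9, with 2 of 5 higher, where 23.2% of all genes were. In plt2 they summed to 22.7 to 35.0 and 7.97 to 13.5, with 3 of 3 lower, where 6.62% of all genes were. Most of the 14 did not pass the count filter, and the genes tested differed between lines. At 5 nM against mock XCP1 and XCP2 were tested in all 3 lines, both called lower in plt2 and higher in gPLT2C212S. COBL9 was tested in plt2 only, and CESA4, CESA7 and ESB1 in the transgenic lines only. CESA4 and CESA7 were tested there at 5 nM against mock but in no fit of mock libraries alone. A gene that passes only through its higher group favours that direction, so these calls do not speak for the 14. The 3 shoot markers summed to at most 25.7 CPM in any library, and RBCS1A and LHCB1.1 had at most 9 and 3 counts. LHCB1.3, a chlorophyll-binding protein and the one shoot marker tested, stood at 2.65, 2.24 and 2.27 CPM in plt2 (mock, 0.3 and 5 nM), at 3.96, 7.49 and 13.9 in gPLT2 and at 7.54, 20.1 and 18.9 in gPLT2C212S. It was called higher than in plt2 in gPLT2C212S at all 3 treatments (log2 1.425, 3.12 and 3.02), where 6.83%, 22.2% and 21.8% of all genes were. In gPLT2 it was called higher at 0.3 and 5 nM (log2 1.715 and 2.59), where 14.3% and 17.8% were. At 5 nM against mock it was called higher in both lines (log2 1.804 and 1.303), where 23.2% and 18.7% were. It was not tested in plt2 from 0.3 to 5 nM, so at those doses it passed the filter against plt2 only through the transgenic libraries. That favours a higher call. Of the meristem markers, 8 were tested, and 6 rose and 2 fell at 5 nM against mock in gPLT2 (log2 from -1.36 to 1.05), while 4 rose and 2 fell in gPLT2C212S (log2 from -1.80 to 0.97). Over all genes tested, 23.2% were called higher and 24.3% lower in gPLT2, and 18.7% and 21.5% in gPLT2C212S. In plt2 0 of 8 were called by edgeR, where 9.44% of all genes were, while DESeq2 called 2 higher and 2 were higher at an unadjusted p under 0.05. Their part in the levels of the flavonol genes was not tested.

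Genes that follow the time of day also differed between the lines. In gPLT2C212S under mock 6 of 10 were higher and 2 lower than in plt2, while 6.83% of all genes were called higher and 11.8% lower. FKF1 stood at 23.2 CPM in gPLT2C212S against 1.61 in plt2, ELF4 at 23.2 against 2.50 and PRR5 at 30.7 against 4.70. LHY stood at 0.660 against 18.1 and CCA1 at 0.544 against 11.9. In gPLT2 1 of 9 was called, LHY at 8.11 against 18.1 CPM (-1.16, adjusted p = 0.016), where 1.08% of all genes were called lower. The LHY call was lost without plt2 replicate 1 or gPLT2 replicate 5 (adjusted p from 0.052 to 0.057). With RGF1 the lines differed from plt2 too. In gPLT2 2 of 9 were higher and 1 lower at 0.3 nM, where 14.3% and 17% of all genes were. At 5 nM 5 of 10 were higher and 1 lower, where 17.8% and 20.7% were. In gPLT2C212S 7 of 10 were higher and 2 lower at 0.3 nM, where 22.2% and 24.2% were. At 5 nM 6 of 9 were higher and 2 lower, where 21.8% and 23.2% were. The part of this difference in the levels of the flavonol genes was not tested.

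The members varied together within groups. In plt2 under mock, replicate 2 was the lowest library for 8 of 9 members and replicate 5 the highest for 6, and in plt2 at 5 nM replicate 1 was the highest for 7 and replicate 5 the lowest for 7. In gPLT2, replicate 3 was the lowest for 7 of 9 both under mock and at 0.3 nM. The median coefficient of variation within groups was 21.9% for MYB12, 23.5% for F3H and 28.7% for CHS, and 51.3% for F3'H. With any 1 library left out, 7 members were called lower in gPLT2 and 8 in gPLT2C212S against plt2 under mock.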

How the data were processed

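RNA-seq was analysed from the authors' deposited table of read counts per gene and, for levels between genes, from the authors' deposited FPKM. Per the submitters' processing notes, reads were handled with HISAT2 2.1.0, featureCounts of Subread 2.0.3 and DESeq 1.34.0 on TAIR10. The strand setting and the treatment of reads that map to several loci are not given in the sources used here. Counts were tested with edgeR 4.0.16 in R 4.3.3 (quasi-likelihood F test, TMM factors, filterByExpr with a minimum count of 10, Benjamini-Hochberg adjustment over all genes in the fit, threshold 0.05). Each fit held only the groups compared, and interaction terms compared responses between lines. Levels are CPM on TMM factors over 47 libraries with the organelle loci left out, and an overlap between groups was read from these. Library totals were 7740000 to 10330000 counts, and floors cover counting error only. SDs give the spread between libraries, and SEs come from the quasi-likelihood fit, which includes that spread.

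The alternatives were DESeq2 1.42.0, RLE factors, total-count scaling, no low-count filter, organelle loci left out, all groups in one fit, the mitochondrial share as a covariate, a replicate block and each library left out. The 10 genes and the comparison lists were chosen with earlier results of these data known. All 10 members are named, and list genes were taken from the up to 5 with the smallest adjusted p in each comparison. DFR, LDOX, WOX5, RBCS1A and LHCB1.1 were named after their values were seen, as were genes named to spell out a small count. Scripts were tested on simulated data. FLS5, FAH1, DFR and LDOX are described by raw counts because folds against groups at the floor depend on the prior count.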

Additional observations from a re-analysis of the deposited data

Results flagged for a closer look

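Among 90 combinations of gene and group, 10 held a library far from the others of its group (Dixon's test at the 95% level, which flags about 1 in 20 groups by chance). CHS had a low library in plt2 under mock (replicate 2, 264 CPM). FLS1 had a high library in gPLT2 under mock (replicate 4, 52.3 CPM) and at 5 nM (replicate 1, 54.8 CPM). 4CL3 had a high library in gPLT2C212S at 5 nM (replicate 5, 4.59 CPM). MYB12 had a low library in plt2 at 0.3 nM (replicate 2, 10.35 CPM) and a high one in plt2 at 5 nM (replicate 5, 16.1 CPM). UGT78D2 had a high library in plt2 under mock (replicate 5, 51.96 CPM) and in gPLT2C212S at 5 nM (replicate 1, 19.01 CPM). MYB111, near its floor throughout, was at 0 CPM in replicate 3 of plt2 at 5 nM and at 0.277 CPM in replicate 1 of gPLT2 at 5 nM.

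In 5 cases the response to RGF1 differed between lines by an interaction term of edgeR's fit. The response of CHI exceeded that of plt2 by 1.88 on the log2 scale at 0.3 nM in gPLT2C212S, by 1.74 at 5 nM in gPLT2 and by 2.25 at 5 nM in gPLT2C212S. The response of UGT84A2 to 5 nM exceeded that of plt2 by 1.77 in gPLT2C212S. The response of F3H to 5 nM differed between gPLT2C212S and gPLT2 by -0.79.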

How the results depend on the processing

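Over 213 tests of single members and 4476 values under alternatives, 4320 kept their side of the threshold, 85 lost the call, 71 gained one, and 0 called values changed sign. Among the 4320, 172 changed sign, all of them values called under neither setting. The cause of the changes below was not tested. With no filter on low counts, which changes the genes tested, members called numbered 1 in plt2 at 0.3 nM, 2 in plt2 at 5 nM and 4 in gPLT2 at 0.3 nM against mock. They numbered 2 under mock and 4 at 5 nM in gPLT2C212S against gPLT2. For the responses they numbered 4 (0.3 nM, gPLT2 minus plt2), 1 (0.3 nM, gPLT2C212S minus gPLT2), 2 (5 nM, gPLT2 minus plt2), 5 (5 nM, gPLT2C212S minus plt2) and 2 (5 nM, gPLT2C212S minus gPLT2). With total-count scaling, which moved the median of all genes by up to 0.53 (log2), they numbered 2 in gPLT2 at 5 nM against mock and 5 in gPLT2C212S from 0.3 to 5 nM. Between the transgenic lines that scaling gave 0 under mock, 5 at 5 nM and 2 for the response to 5 nM. With all groups in one fit 0 members differed between the transgenic lines under mock, and 0 in the response to 5 nM. With the mitochondrial share as a covariate 0 were called in plt2 at 5 nM against mock, and 0 in the response to 0.3 nM of gPLT2C212S minus plt2.

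With 1 library left out, members called against mock ranged over 0 to 0 and 0 to 1 in plt2, 2 to 4 and 2 to 5 in gPLT2, and 1 to 2 and 5 to 6 in gPLT2C212S (0.3 and 5 nM). From 0.3 to 5 nM they ranged over 0 to 1 in plt2, 4 to 6 in gPLT2 and 1 to 4 in gPLT2C212S. Against plt2 they ranged in gPLT2 over 7 to 7, 6 to 8 and 7 to 8, and in gPLT2C212S over 8 to 8, 7 to 7 and 8 to 8 (mock, 0.3 and 5 nM). Between the transgenic lines the ranges were 0 to 1, 3 to 5 and 2 to 4, and for the responses 0 to 0, 1 to 1 and 0 to 1 at 0.3 nM and 1 to 1, 1 to 2 and 0 to 1 at 5 nM.

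Replicate numbers are shared between groups in the labels, but in no comparison were all same-numbered pairs correlated above 0.1 (correlations from -0.44 to 0.35, with at most 3 of 5 pairs above 0.1, in gPLT2 against plt2 at 0.3 nM), so the numbers were not taken as pairs. With a replicate block, 0 members were called in plt2 at 5 nM against mock. Depth limits MYB111, and F3'H and 4CL3 in gPLT2C212S at 5 nM.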

Other observations

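Genes beside the flavonol enzymes moved with RGF1 in the transgenic lines. BGLU15, a glucosidase, stood at 21.7 CPM under mock and 45.4 CPM at 5 nM in gPLT2, and at 19.3, 56.7 and 56.5 CPM under mock, 0.3 nM and 5 nM in gPLT2C212S, against 28.3 and 23.1 CPM under mock and 5 nM in plt2. FAH1 had at most 3 counts in every plt2 library at every dose, while in gPLT2 at 0.3 nM it had 19 to 33 counts and in gPLT2C212S at 0.3 nM 28 to 59.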
